A study of Mus musculus with 12 samples.

Results

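The cytosolic ribosomal protein genes encode the proteins that, with ribosomal RNA, make up the ribosome in the cytosol. Members were taken by symbol: every row whose name consists of Rpl, Rps or Rplp, a number and at most a short suffix, so that pseudogene rows and the S6 kinases stayed out. The rule found 82 genes of the 37583 in the table, 51 of the large subunit and 31 of the small one, and used no measured value. The libraries came from wild-type mice given a burn and a tenotomy (the cutting of a tendon), written B/T in the sample titles. Blood taken at 6h, Day1 or Day7 was sorted by the iChip, a microfluidic device, and total RNA of the enriched cells was sequenced, with 4 libraries per time and 12 in all. The labels name the material cMPCs and blood cells, with no expansion of the abbreviation, and every library carries the same genotype and injury. Reads of 4 genes on the Y chromosome numbered 0, 0, 76 and 76 at 6h (replicates 1 to 4), 0, 603, 422 and 853 at Day1, and 0 in each Day7 library. The presence of such Y-linked reads thus cannot be fully told apart from time. With a term for it, limma (adjusted p under 0.05) called 0 of 11211 genes for Day7 over Day1, against 245 higher and 403 lower without it. Uninjured mice were not analysed here, so each comparison sets one time after injury against another, and since the labels do not say whether replicates were separate animals, p-values measure only the spread between these libraries, which may be technical.

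The large subunit joins amino acids into protein and the small subunit reads the messenger RNA. Cells make the proteins of both in near equal amounts, largely by controlling translation: the messenger RNAs of this family begin with a C and a run of pyrimidines, the terminal oligopyrimidine or TOP motif, through which the kinase mTORC1 and the RNA-binding protein Larp1 set how much of each message is translated. In blood these messages are abundant in lymphocytes and in young red cell precursors, and they are lost as a reticulocyte matures into a red cell.

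The libraries held 5098395 to 12379041 reads each, and 16.1% to 70.3% of them fell in haemoglobin genes. The deposited values are whole reads times a factor of each library, so a gene with 0 reads in a library could have had a value of up to 0.0942 to 1.85 there, the limit that 3 reads set. All 14 erythroid markers with a row were detected at each time, and their summed deposited value ran between 202826 and 1347890 at 6h, 57960 and 428705 at Day1, and 129946 and 3851230 at Day7. Of the 12 fibroblast and matrix markers, 1 was at 0 in every 6h library, 0 were at Day1 and 2 were at Day7, so reads of blood cells and of stromal genes were both present. In limma, with adjusted p-values under 0.05, 8 of 12 platelet, 3 of 14 erythroid and 2 of 6 tested neutrophil markers were higher at Day7 than at Day1, where 2.19% of all tested genes were. In the same comparison 5 of 9 matrix and 5 of 7 mesothelial markers were lower, where 3.59% of all genes were. Of 12 hepatocyte markers, 7 were higher at Day1 than at 6h, where 0.169% of all genes were, with a median log2 fold change of 5.74. For Day7 over 6h, 7 of the 12 were higher, with a median of 5.48, as were 5 of 12 platelet markers and 1 of 6 neutrophil markers, where 0.607% of all genes were. The part of these cell types in the results on the ribosomal protein genes was not tested.

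The family took a small and uneven share of each library. Of all reads, ribosomal protein genes held 0.13%, 0.0947%, 0.0928% and 0.131% at 6h (replicates 1 to 4, the order used throughout), 0.181%, 0.509%, 0.225% and 0.470% at Day1, and 0.147%, 0.0710%, 0.169% and 0.103% at Day7. The lowest of the Day1 shares lay above the highest of the other 8 libraries. Outside the haemoglobin genes the shares were 0.437%, 0.244%, 0.312% and 0.177% at 6h, 0.505%, 0.607%, 0.481% and 0.668% at Day1, and 0.178%, 0.157%, 0.467% and 0.329% at Day7. The means of these were 0.292% ± 0.111 at 6h, 0.565% ± 0.0873 at Day1 and 0.283% ± 0.145 at Day7 (SD, n = 4 each). Again all 4 Day1 libraries stood above all others, by a narrow margin over the third Day7 library. By counting error alone, the exact binomial 95% interval ran between 0.474% and 0.489% in the third Day1 library and between 0.459% and 0.474% in the third Day7 library, so these 2 all but touched. These shares are a description without a test. They cannot tell more ribosomal protein RNA per cell from more cells of a type rich in it, here or in any result that follows, since the libraries are bulk RNA. Higher levels at Day1 were also not particular to the family on these scales. Relative to all reads, the median log2 fold change of Day1 over 6h was 1.66 over its tested members and 1.59 over all tested genes. Outside haemoglobin both medians were 1.24.

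**Figure D1:**
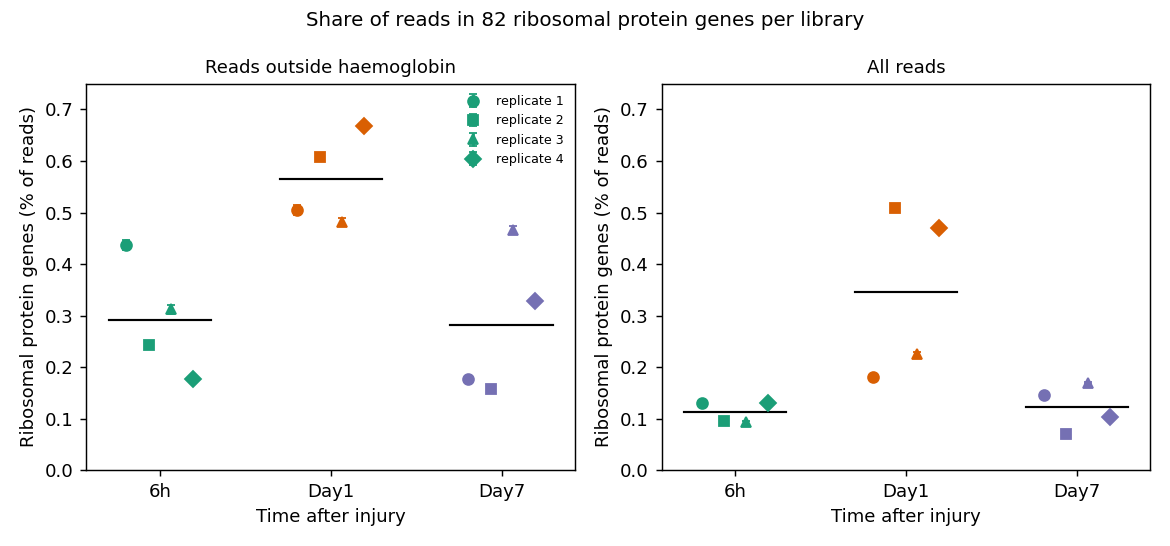
Share of reads in the 82 ribosomal protein genes, in percent on linear axes that start at 0, by time after injury: of reads outside haemoglobin genes on the left and of all reads on the right. Each symbol is 1 library with its exact binomial 95% interval, often hidden by the symbol, and the lines are group means: 0.292% at 6h, 0.565% at Day1 and 0.283% at Day7 on the left.

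On the deposited scale the order of the libraries differed. The summed value of the 82 genes was 1481, 1828, 1203 and 970.5 at 6h, 1178, 1793, 1267 and 1771 at Day1, and 1060, 1172, 9497 and 3116 at Day7. The third Day7 library thus stood far above the other 11. It held the highest value for 37 of the 75 tested members, it was the library with the second fewest genes detected (7635), and its erythroid markers were the highest of the 12 on this scale, while its share of reads in haemoglobin genes, 63.7%, was at rank 5. The value of 1 read, 0.617, was also the highest there. The depth of the family was modest: 209071 reads in all, of which the 5 most read members took 32.1% and the 10 most read 54.0%. Reads were found in every library for 53 members.

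Members differed widely in level, which can be compared between genes only per length. Over the 12 libraries Rplp1 had the most reads per kilobase of the file's gene length (13772), followed by Rpl8 (11464), Rpl32 (10310), Rpl4 (8496) and Rplp0 (8463). Rplp0 and Rplp1 belong to the stalk of the large subunit, which recruits the translation factors, while Rpl4 and Rpl8 lie in its core. Rpl8 stood at 38.5, 58.7, 43.9 and 53.2 at 6h, 56.4, 107, 49.9 and 98.2 at Day1, and 48, 33.3, 205 and 40.2 at Day7. Rpl32 stood at 55.5, 40.1, 16.4 and 16 at 6h, 27.8, 45, 27 and 50.6 at Day1, and 39, 29.1, 148 and 93.1 at Day7. Rpl4 had values of 67, 142, 65.7 and 40.1 at 6h, 84, 99.7, 73.7 and 117 at Day1, and 93.1, 42.7, 406 and 83.8 at Day7. In all 3 genes the time groups overlapped, and the third Day7 library was the highest.

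The start of the message carries the feature by which this family is known, so the windows around the annotated starts are shown for some of the members whose values are given library by library. RefSeq's promoter table of build GRCm38.p6 matched 62 of the 82 members by symbol. The search was for a C followed by at least 5 further bases that were each C or T, on the transcribed strand only, with the C within 5 bases of the annotated start. Such a run was present for 26 of the 62 members (41.9%), against 13.0% of 7915 other tested genes and 11.9% of all 27025 genes in the table. Each window below holds 30 bases, 5′ to 3′, with the run in capitals from a C in that range onward and 10 bases before that C.
Rpl12, chr2:32961704-32961733, plus strand: caggatccgtCTTTTCggctttcggctcgg
Rpl13a, chr7:45128724-45128753, minus strand: tgcgacaagaCCTCCTCCTTTCCCaggcgg
Rpl15, chr14:18270967-18270996, minus strand: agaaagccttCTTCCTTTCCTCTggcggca
Rpl22l1, chr3:28805501-28805530, plus strand: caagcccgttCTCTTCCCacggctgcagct
Rpl27a, chr7:109519184-109519213, plus strand: tcgtgagctcCTCCCTTTTCCCTTTCTgcc
Rpl38, chr11:114668570-114668599, plus strand: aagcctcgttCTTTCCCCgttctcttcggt
Rplp2, chr7:141447640-141447669, plus strand: tcagcgtcttCCTTTCgccgccggacgccg
Rps2, chr17:24720057-24720086, plus strand: agatctcgcgCTTCTTggagcactataaat
Rps6, chr4:86857348-86857377, minus strand: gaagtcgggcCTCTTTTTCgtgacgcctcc
Rps21, chr2:180257368-180257397, plus strand: gaggacccgcCCTCCTgcccaatagtgctg
Rps27, chr3:90213629-90213658, minus strand: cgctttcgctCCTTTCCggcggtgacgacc
The stretches in capitals varied in length, with 17 bases for Rpl27a and 6 for Rpl12, Rplp2, Rps2 and Rps21. In Rpl15, Rpl27a, Rplp2, Rps6, Rps21 and Rps27, further pyrimidines with a C stand directly before the capitals. The unbroken run of pyrimidines in those genes is therefore longer than the capitals show. No such run lay in the same window for Rplp0, Rpl41, Rpl9 or Rpl10a. A run more than 5 bases from the annotated start would have been missed, so this does not show that these genes lack the motif. Among members whose Day7 libraries all lay below Day1 are Rpl12, Rpl7a and Rps18, which have the run, and Rpl9 and Rpl10a, in which none was found.

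Genes were tested where 4 or more libraries held a value of 1 or higher, which left 75 members, 46 of the large and 29 of the small subunit. The 7 others were Rpl10l, Rpl23a, Rpl36a, Rpl39l, Rpl3l, Rps16 and Rps6, and they are described at the end with their values. Across the 12 libraries, the SD of log2(value + 1) had a median of 0.89 over the tested members and ran between 0.47 and 1.76, against a median of 1.30 over all 11211 tested genes. The members with the largest SD were Rplp2 (1.76), Rpl41 (1.53) and Rplp0 (1.46), and among those with the smallest were Rpl13a (0.47) and Rps3a (0.54). Rps3a, a small subunit protein, stood at 20.4, 10.2, 12.8 and 13.2 at 6h, 12.2, 20.1, 8.65 and 17.2 at Day1, and 11.6, 21.2, 35.8 and 21.3 at Day7, and its 3 time groups overlapped.

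Day1 was first compared with 6h. No ribosomal protein gene passed the test of limma's moderated statistic with Benjamini-Hochberg adjustment over all 11211 genes, against 0.169% of all tested genes called higher at Day1 and 0% lower. The differences of the family were mostly positive, and about as large as those of other genes: the median log2 fold change was 0.46 over the 75 members and 0.52 over all tested genes, and it was positive for 60 of the 75 members and for 71.6% of all genes. At an unadjusted p under 0.05, Rps27 and Rpl36 were higher, 2 members against 9.77% of all genes, and 0 were lower against 1.39%. The Day1 libraries lay wholly above the 6h libraries for 7 members, Rpl14, Rpl29, Rpl35a, Rpl36, Rps12, Rps18 and Rps27, where 5.52% of all genes did so. They lay wholly below for 0 members, where 0.883% of all genes did. With edgeR's quasi-likelihood test and with DESeq2, both run on the recovered reads, 0 members were called in this comparison, where edgeR called 0.0803% of all genes higher and DESeq2 1.51% higher and 0.25% lower.

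Rps27, a small subunit protein with a zinc finger, had the largest positive difference. Its deposited values were 0, 0, 0.483 and 0.42 at 6h, 4.2, 1.26, 4.85 and 2.41 at Day1, and 0.482, 0, 0 and 1.33 at Day7. All 4 Day1 libraries were above all 6h libraries, of which 2 held no read. The log2 fold change of Day1 over 6h was 1.70 with a standard error of 0.56 (limma, adjusted p = 0.29), the smallest adjusted p of a member in this comparison.

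Other members with large positive values differed less evenly. Rpl22l1, a paralog of the RNA-binding protein Rpl22, stood at 9.9, 0, 1.45 and 0.599 at 6h, 2.35, 7.85, 10.6 and 10.4 at Day1, and 2.61, 8.42, 4.93 and 1.66 at Day7, with a log2 fold change of 1.63 for Day1 over 6h. Its first 6h library lay among the Day1 libraries, so the groups overlapped. Rpl27a had values of 0.747, 3.79, 1.45 and 0 at 6h, 4.82, 11.7, 4.7 and 1.56 at Day1, and 1.44, 2.3, 0 and 0.333 at Day7 and a log2 fold change of 1.43, and its second 6h library lay among the Day1 libraries. Rpl36 had values of 0, 0, 1.45 and 0.18 at 6h, 1.48, 2.23, 2.73 and 3.00 at Day1, and 0.619, 0.766, 0.617 and 0.998 at Day7, with a log2 fold change of 1.34 (limma, adjusted p = 0.387). Here the lowest Day1 library exceeded the highest 6h library only slightly. Of the other members without overlap, Rps18 averaged 19.8 ± 3.38 at Day1 and 9.66 ± 4.69 at 6h, and Rpl14 averaged 27 ± 4.88 at Day1 and 12.1 ± 3.75 at 6h (SD, n = 4 each). Rpl29 averaged 6.79 ± 0.642 at Day1 and 3.11 ± 1.19 at 6h, and Rpl35a averaged 7.35 ± 2.61 at Day1 and 3.43 ± 1.62 at 6h. Rps12 had values of 1.61, 1.00, 1.97 and 0.623 at Day1 and 0, 0, 0 and 0.0599 at 6h.

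At the other end, the 4 most negative values of Day1 over 6h belonged to Rplp0 (-0.97), Rpl7l1 (-0.97), Rpl41 (-0.96) and Rpl15 (-0.76), each of which turned positive when libraries were scaled to all reads (0.37, 0.15, 0.39 and 0.11). Rpl15, a core protein of the large subunit, stood at 12.9, 1.51, 3.62 and 4.02 at 6h, 1.98, 5.15, 3.19 and 0.272 at Day1, and 2.55, 3.25, 3.08 and 0 at Day7. Its first 6h library was the highest of the 12 and the others overlapped, and the log2 fold change was -0.30 without that library and -0.33 without the fourth Day1 library. Rpl7l1, a paralog of Rpl7, had values of 25, 18.2, 11.3 and 25.9 at 6h, 18.5, 15, 21.8 and 0.584 at Day1, and 18.4, 3.45, 11.1 and 4.99 at Day7, and only the fourth Day1 library was apart from the rest of its group. Without it the log2 fold change was -0.069, and that of Rplp0 was -0.59 without the second 6h library. The values of Rplp0 and Rpl41 are given with the comparison of Day7 and Day1.

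Scaling moved these values as a whole. Relative to reads outside haemoglobin, the median log2 fold change of Day1 over 6h was 1.24 for the members and 1.24 for all genes, and Rps27 alone of the members was called higher (limma, 2.40, adjusted p = 0.0367), against 3.77% of all genes. Relative to all reads it was 1.66 for the members and 1.59 for all genes, and Rpl27a, Rpl36, Rps23 and Rps27 were called higher, against 10.5% of all genes. Relative to the median of all genes, the family stood at -0.060 on the deposited scale, -0.00024 outside haemoglobin and 0.069 relative to all reads. The members' median was thus close to that of all genes under each of these scalings.

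**Figure D2:**
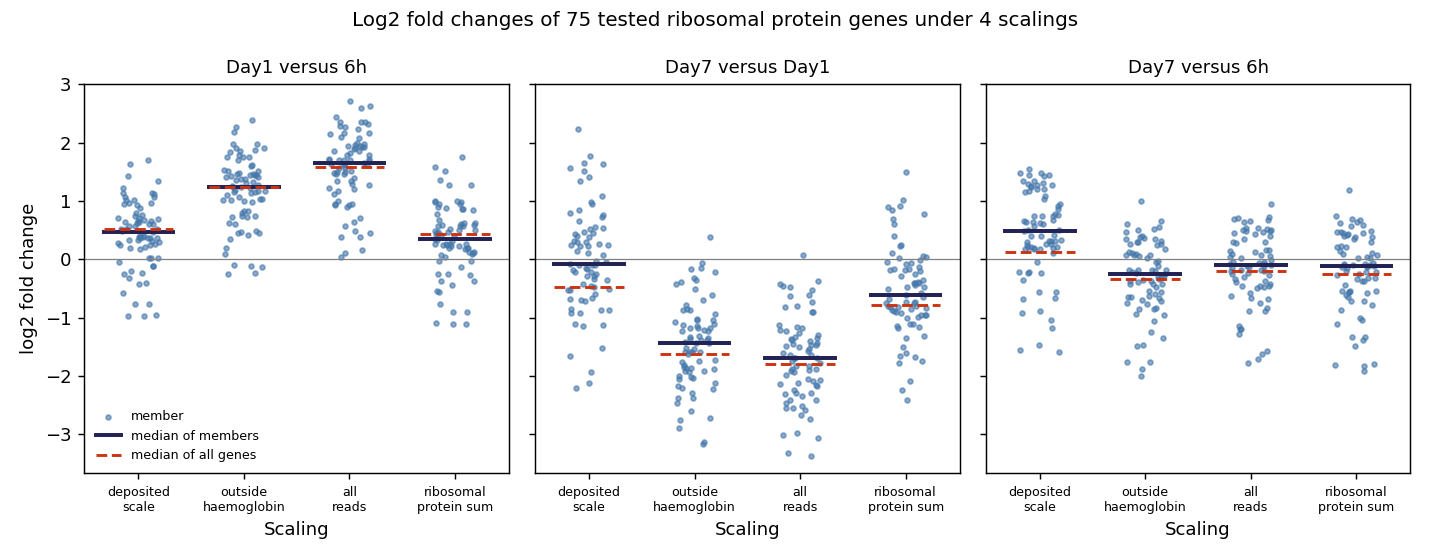
Log2 fold changes of the 75 tested ribosomal protein genes in the 3 comparisons, on a linear axis, under 4 scalings of the libraries. Each point is a gene, the solid line the median of the members and the dashed line the median of all 11211 tested genes; the 2 lines move together between scalings, and in Day7 versus Day1 the members' median, with all 12 libraries in the fit, is above that of all genes (by 0.41 on the deposited scale and 0.11 when scaled to all reads).

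Day7 was then compared with Day1. Again 0 of the 75 members passed the test, where 2.19% of all genes were called higher and 3.59% lower at Day7 (limma, adjusted p under 0.05). The median log2 fold change was -0.077 over the members, of which 35 were positive, and -0.48 over all tested genes, of which 38.2% were positive. The median of the large subunit members was -0.093 and that of the small subunit members -0.025. At an unadjusted p under 0.05, Rplp0 was higher, where 11.1% of all genes were, and Rpl10a, Rpl12, Rpl27a, Rpl9 and Rps27 were lower, where 18% of all genes were. The Day7 libraries lay wholly above the Day1 libraries for 1 member, Rplp0, against 8.47% of all genes, and wholly below for 7, Rpl10a, Rpl12, Rpl3, Rpl36, Rpl7a, Rpl9 and Rps18, against 14.5%. On the recovered reads, edgeR called 0 members, where it called 0.00892% of all genes lower and 0% higher, while DESeq2 called Rplp0, Rplp2 and Rpl41 higher, against 4.68% of all genes, and Rpl9 and Rpl10a lower, against 11.2%. With array weights, limma called Rplp0 higher, against 9.91% of all genes, and Rpl9, Rpl12, Rpl10a and Rpl27a lower, against 14.9%, and a fit of these 2 groups alone called Rpl9 and Rpl12 lower, against 10.1%.

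The stalk proteins and Rpl41 had the largest positive values in Day7 over Day1. Rplp0, the stalk's anchor on the ribosome, stood at 83.8, 278, 154 and 66.4 at 6h, 66.4, 69.9, 47.7 and 70.3 at Day1, and 84.7, 145, 1673 and 387 at Day7. Every Day7 library was above every Day1 library, and the third Day7 library was by far the highest. The log2 fold change was 2.24 with a standard error of 0.86 (limma, adjusted p = 0.0961). Among the fits that left out 1 library, Rplp0 passed the test only without the first Day7 library, with a log2 fold change of 2.84, while without the third Day7 library that value was 1.41. Rplp2, one of the paired acidic proteins that Rplp0 holds, had values of 29.5, 84.1, 28.5 and 14.4 at 6h, 27.1, 26.4, 27.5 and 15.6 at Day1, and 12.5, 20.1, 869.7 and 197 at Day7. The first and the second of its Day7 libraries lay among or below the Day1 libraries, while the third and the fourth lay above. Rplp1, the partner of Rplp2, stood at 46.5, 53.4, 28.5 and 38.1 at 6h, 24.8, 50.1, 29.7 and 52.6 at Day1, and 36.7, 51.3, 635 and 86.8 at Day7, with the same pair of Day7 libraries on top. The log2 fold change was 1.77 for Rplp2 and 1.42 for Rplp1, with adjusted p-values of 0.242 and 0.254 in limma, and that of Rplp2 was 0.64 without the third Day7 library.

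Rpl41, the smallest protein of the family, which bridges the subunits, had values of 180.2, 162, 96.8 and 58.8 at 6h, 60.2, 55.8, 68.4 and 49.2 at Day1, and 27.7, 76.4, 1424 and 362 at Day7. The first Day7 library was the lowest of the 12 and the third the highest. Rps2, which lies near the entry of the messenger RNA channel, stood at 42.6, 31.4, 25.6 and 11.2 at 6h, 18, 31.8, 20.9 and 23.2 at Day1, and 14.5, 41.3, 499 and 99.1 at Day7, again with the third Day7 library far above the rest. Their log2 fold changes were 1.64 for Rpl41 and 1.66 for Rps2 on the deposited scale, and 0.66 and 0.75 without the third Day7 library, while that of Rpl41 was 2.54 without the first. Those of Rplp2, Rps2 and Rpl41 turned negative outside haemoglobin (-0.058, -0.17 and -0.21) and relative to all reads (-0.37, -0.48 and -0.52), while that of Rplp0 was 0.38 outside haemoglobin and 0.074 of all reads.

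The 4 most negative values were all of the large subunit. Rpl9 stood at 3.73, 0, 3.86 and 7.91 at 6h, 5.81, 1.92, 20.2 and 2.92 at Day1, and 0.482, 0.191, 0 and 0.998 at Day7. The 4 Day7 libraries were the lowest of the Day7 and Day1 libraries, the third of them without a read, and the log2 fold change was -2.22 with a standard error of 0.84 (limma, adjusted p = 0.0902). Rpl12, which sits at the base of the stalk, had values of 29.7, 1.51, 0.966 and 4.8 at 6h, 5.81, 4.93, 8.8 and 8.56 at Day1, and 1.03, 0.957, 0 and 1.66 at Day7, with a log2 fold change of -2.12. Its Day7 and Day1 libraries did not overlap either, and the first 6h library was the highest of all. Rpl10a, the protein of the opposite stalk that contacts the departing transfer RNA, had values of 1.68, 3.41, 4.35 and 8.75 at 6h, 7.54, 4.71, 10.5 and 2.06 at Day1, and 1.58, 0.191, 0 and 1.66 at Day7, with a log2 fold change of -1.93. Its Day7 libraries lay below all 8 others. Rpl27a was given above, and its log2 fold change of Day7 over Day1 was -1.66, with 1 Day7 library inside the range of Day1. For Rps27 it was -1.52 (limma, adjusted p = 0.0835), the smallest adjusted p of a member here.

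The remaining members whose Day7 libraries all lay below Day1 were nearer to each other. Rps18 averaged 9.08 ± 3.98 at Day7 and 19.8 ± 3.38 at Day1, Rpl36 averaged 0.75 ± 0.179 at Day7 and 2.36 ± 0.666 at Day1, and Rpl7a averaged 2.07 ± 1.31 at Day7 and 5.33 ± 1.41 at Day1 (SD, n = 4 each). Rpl3, close to the site where peptide bonds form, had values of 8.96, 4.92, 4.35 and 2.1 at 6h, 5.81, 7.57, 9.4 and 9.11 at Day1, and 4.75, 3.45, 4.32 and 2.99 at Day7.

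With libraries scaled to reads outside haemoglobin, 23 members were called lower at Day7 than at Day1 (limma, adjusted p under 0.05), against 33.6% of all genes, and the medians were -1.43 over members and -1.62 over all genes. With all reads as the scale, 24 were called lower, against 35.2% of all genes, with medians of -1.70 and -1.81. Both shares of members were near those of all genes. Relative to the median of all genes the family stood at 0.41, 0.19 and 0.11 on the deposited, outside-haemoglobin and all-reads scales, and at 0.17 when scaled to its own summed reads, a scale added after the data were seen. That excess over all genes was not there without the third Day7 library, where the medians on the deposited scale were -0.34 over members and -0.32 over all genes. The sign of the members' own median was not stable: it became 0.080 and 0.032 without the second or the fourth Day1 library, 0.060 and 0.13 without the first or the second Day7 library, and -0.34 without the third Day7 library.

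Day7 against 6h gave 0 of 75 members called, against 0.607% of all genes called higher and 0.277% lower (limma, adjusted p under 0.05). The median log2 fold change was 0.49 over the members, with 58 positive, and 0.13 over all genes, with 53.8% positive. Without the third Day7 library it was 0.22 over the members and 0.21 over all genes. With all libraries it was 0.069 over the members under median-of-ratios scaling, and it became -0.25 outside haemoglobin, -0.10 relative to all reads and -0.12 relative to the family's own reads. At an unadjusted p under 0.05, 0 members were higher or lower, where 12.1% of all genes were higher and 5.9% lower. The Day7 libraries lay wholly above the 6h libraries for 0 members, against 3.45% of all genes, and wholly below for 1, Rpl10a, against 2.38%. On the recovered reads, edgeR called 0 members, where it called 0.517% of all genes higher and 0.232% lower, while DESeq2 called Rps12 higher, against 2.49% of all genes, and Rpl9 lower, against 7.1%. The values of Rps12 were 0.688, 0.383, 0 and 14.6 at Day7 and 0, 0, 0 and 0.0599 at 6h, so that the fourth Day7 library held most of its signal.

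The largest positive values of Day7 over 6h were those of Rps2 (1.54), Rpl38 (1.47), Rpl26 (1.47) and Rps21 (1.45), log2 fold changes on the deposited scale. Rpl38, whose loss in mice alters the pattern of the axial skeleton, stood at 1.31, 1.51, 0.724 and 1.14 at 6h, 2.22, 1.48, 1.21 and 2.61 at Day1, and 1.31, 2.11, 27.1 and 5.32 at Day7. Rpl26, near the tunnel through which the new protein leaves, had values of 5.97, 11, 9.41 and 6.95 at 6h, 12, 26.9, 10.5 and 27.4 at Day1, and 9.84, 14.2, 54.3 and 44.2 at Day7. Rps21 of the small subunit had values of 5.79, 7.2, 11.3 and 3.72 at 6h, 8.28, 16.1, 11.6 and 29.8 at Day1, and 4.27, 8.04, 171 and 21 at Day7. In each of these genes the first Day7 library lay within the range of 6h and the third Day7 library was the highest. Without that library the log2 fold changes were 0.63 for Rps2, 0.73 for Rpl38, 1.10 for Rpl26 and 0.43 for Rps21. The most negative values were those of Rpl12 (-1.59), Rpl10a (-1.56), Rpl9 (-1.47) and Rpl7l1 (-1.18), with limma's adjusted p-values of 0.344, 0.306, 0.361 and 0.491. That of Rpl12 was -0.76 without the first 6h library.

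Within the family, the share of single members differed between libraries. Rplp0, Rplp2 and Rpl41 together took 19.8%, 28.7%, 23.2% and 14.4% of the family's reads at 6h, 13.0%, 8.49%, 11.3% and 7.63% at Day1, and 11.8%, 20.7%, 41.8% and 30.4% at Day7. These 3 genes were picked after their values were seen, as those with the largest SD. Rplp0 led the family with 17.6% of its reads in the third Day7 library, and Rpl41 followed, whereas Rps3, which lies at the entry of the messenger RNA, led in the fourth 6h library (10.1%) and in the second and the fourth Day1 libraries, with 9.82% in the second one. The mean log2 level of the 14 erythroid markers was 8.74, 10.5, 10.1 and 8.16 at 6h, 9.50, 6.52, 8.53 and 7.19 at Day1, and 7.74, 10.4, 13.2 and 11.8 at Day7. The 3 libraries with the highest share of these genes were also the 3 with the highest erythroid level, in the same order, and the 2 with the lowest share were the 2 with the lowest level. This level carries each library's factor, which was also highest in those 3 libraries (0.617, 0.333 and 0.379 per read) and lowest in those 2. The share of reads in haemoglobin genes, which does not carry it, was 63.7%, 68.6% and 61.1% in the 3, at ranks 5, 3 and 6 of the 12 libraries. The part of red cell precursors in these shares was not tested. Rpl9, Rpl12, Rpl10a and Rpl27a together had their lowest share in the third Day7 library, at 0% of the family's reads, and their highest in the third Day1 library, at 3.49%. These genes were picked as those with the most negative log2 fold changes of Day7 over Day1. Lower shares at Day7 than at Day1 thus follow from the choice.

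**Figure D3:**
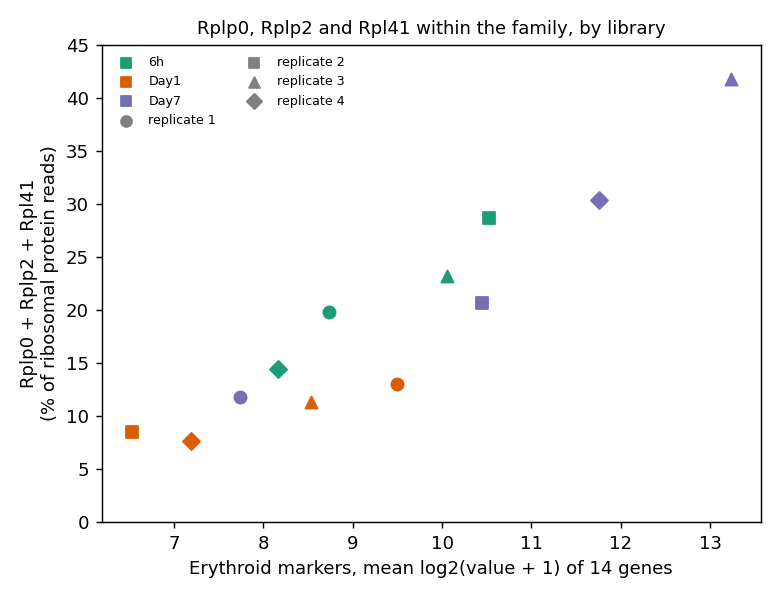
Share of the family's reads taken by Rplp0, Rplp2 and Rpl41 together (percent, linear axis from 0) against the mean log2(deposited value + 1) of 14 erythroid markers, 1 symbol per library with colour for time. The third and the fourth Day7 libraries, at 41.8% and 30.4%, hold the highest values on both axes, and the second and the fourth Day1 libraries, at 8.49% and 7.63%, the lowest.

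The split between the subunits overlapped between times. Of the family's reads, small subunit members held 39.5% ± 2.98 at 6h, 43.6% ± 3.49 at Day1 and 37.1% ± 6.04 at Day7 (SD, n = 4 each). Its lowest value, 28.5%, was in the group at Day7. By the median of each group, 4 tested members were highest at 6h, 39 at Day1 and 32 at Day7, while by the mean it was 6 at 6h, 28 at Day1 and 41 at Day7.

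Several members are known for roles in blood disease, from human genetics. Rps19, the gene most often mutated in Diamond-Blackfan anaemia, in which red cell precursors fail, stood at 34, 25, 28.2 and 15.6 at 6h, 19.9, 50.4, 35.6 and 46.4 at Day1, and 23.9, 24.9, 76.5 and 70.2 at Day7. Rps14, whose loss underlies the anaemia of a human marrow disorder, had values of 121, 101.5, 66.4 and 42.3 at 6h, 50.1, 85.3, 39.2 and 66.4 at Day1, and 59.4, 57.4, 442 and 319 at Day7. Both overlapped between times. Rpl5 and Rpl11, which are mutated in Diamond-Blackfan anaemia too and form a particle with the smallest ribosomal RNA that binds Mdm2, were low. Rpl5 stood at 1.31, 0.757, 0.483 and 0 at 6h, 1.73, 0.973, 0 and 0 at Day1, and 1.1, 0, 1.23 and 1.33 at Day7. Rpl11 stood at 0.187, 0.379, 4.83 and 10.8 at 6h, 4.33, 1.6, 0.152 and 0.389 at Day1, and 0.894, 0, 0 and 2.33 at Day7, with the fourth 6h library the highest. Rpl5 had 19.6 reads per kilobase, the lowest of the tested members. The adjusted p-values of these 4 genes in limma ran between 0.266 and 0.985 over the 3 comparisons.

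Other members carry roles in signalling or assembly. Rpl13a, which in human myeloid cells leaves the ribosome after interferon treatment to silence messages, had the steadiest level of the family, with values of 80.7, 51.9, 59.1 and 61.4 at 6h, 71.8, 122, 101.1 and 136 at Day1, and 81.9, 74.3, 114 and 135 at Day7. The Day1 average was 108 ± 27.9 and the 6h average 63.3 ± 12.3 (SD, n = 4 each), with a log2 fold change of 0.74 (limma, adjusted p = 0.719). Rpl10, which joins the large subunit late in its assembly, stood at 0, 2.65, 4.83 and 5.1 at 6h, 7.17, 6.00, 5.38 and 1.52 at Day1, and 0.688, 1.15, 4.93 and 2.33 at Day7. Rps4x, encoded on the X chromosome, stood at 7.84, 14, 3.38 and 2.7 at 6h, 4.57, 7.63, 2.05 and 6.11 at Day1, and 5.23, 9.38, 3.7 and 11.6 at Day7. All 3 overlapped between all times.

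Paralogs of ribosomal protein genes were compared with their parents. Rpl22 stood at 5.97, 11.7, 4.35 and 5.69 at 6h, 11.4, 16.4, 14.7 and 12.4 at Day1, and 16.9, 5.93, 29.6 and 8.31 at Day7, and its coding sequence shares 67.5% of aligned bases with that of Rpl22l1. Per kilobase of the file's gene length (485 bases for Rpl22l1 and 2801 for Rpl22), Rpl22l1 had 1734 reads and Rpl22 589.8. In total Rpl22 had the more reads, 1652 against 841, and the coding sequences are of similar length (384 and 366 bases). Which of the 2 was the more read one thus depends on the length used. Rps27l, 76.2% identical to Rps27, had values of 24.3, 36, 14.7 and 17.3 at 6h, 11.7, 66.2, 35.3 and 40.4 at Day1, and 22.4, 8.61, 51.2 and 53.2 at Day7. It had 5442 reads per kilobase and Rps27 645, and in total 4892 reads against 220, so here the paralog had the more counted reads. Rps27 has 4 annotated near-identical copies elsewhere in the genome and Rps27l has 0. The part of such copies in this difference was not tested. Rpl39 stood at 5.23, 9.09, 5.55 and 5.63 at 6h, 7.79, 10.1, 5.92 and 10.2 at Day1, and 2.61, 6.7, 61.7 and 44.2 at Day7 and Rpl7 at 11, 18.2, 12.8 and 8.15 at 6h, 14.2, 16, 18.7 and 30.3 at Day1, and 9.29, 11.7, 161 and 55.2 at Day7. For these 2 the parents were the more read ones: Rpl7l1 had 735 reads per kilobase and Rpl7 1178, and Rpl39l had 7.58 against 838 for Rpl39. Rpl3l, a paralog of striated muscle, had 15.2 against 639 for Rpl3. Rpl10l, a paralog of the testis, had 0 reads in all 12 libraries.

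The 7 members below the filter held few reads. Rps6, the substrate of the S6 kinases downstream of mTORC1, had 52 reads in all, with values of 0.934, 0, 0 and 0 at 6h, 1.98, 0.22, 1.82 and 0 at Day1, and 0, 0, 0 and 0 at Day7. A count of 0 in the Day7 libraries allowed values of up to 0.206, 0.574, 1.85 and 0.998. Rps16 had values of 5.04, 0, 0 and 0.42 at 6h, 0.742, 0.565, 1.97 and 2.88 at Day1, and 0.0688, 0.191, 0 and 0.333 at Day7, Rpl36a had 0.747, 0, 0.241 and 0.12 at 6h, 0.989, 0.911, 0 and 0.0389 at Day1, and 0.275, 0, 15.4 and 0.998 at Day7, and Rpl23a had 0, 0.379, 0.724 and 0.719 at 6h, 0.494, 0.0314, 0.0758 and 2.26 at Day1, and 0, 0, 0.617 and 0.998 at Day7. Rpl36a reached its highest value in the third Day7 library, and no other library held more than 1 for it. Rpl3l had 24 reads in 3 libraries (0.187 and 2.90 at 6h and 0.757 at Day7), and Rpl39l had 7 reads in 2 (0.234 at Day1 and 0.191 at Day7). The row named Rpl24 carries the Ensembl ID that GENCODE M21 gives to Zbtb11, so its values cannot be read as those of Rpl24. The naming rule took this row, and it is among the 82 members and the 75 tested ones in each count, share and median.

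Many members have near-identical copies in the genome, and a read that fits several places can be left out or split by the counting, a step whose setting is not given in the sources used here. Transcripts of other genes at least 95% identical over at least 80% of a member's coding sequence were counted in the annotation GENCODE M21. The 20 members with 0 to 2 copies had a median of 2308 reads per kilobase, the 45 with 3 to 9 copies 576.2, and the 16 with 10 or more copies 268.9. Spearman's rho between copies and reads per kilobase was -0.40 over 81 genes, a description across genes of the same libraries. Rpl21 had the most copies (57) and Rps6 had 11, while Rpl8 had 0 and Rps2 had 26 with 2284 reads per kilobase. The 164 pseudogene rows of the table held 2303 reads in all. The part of such copies in the levels was not tested, and differences in level between members are uncertain for that reason.

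**Figure D4:**
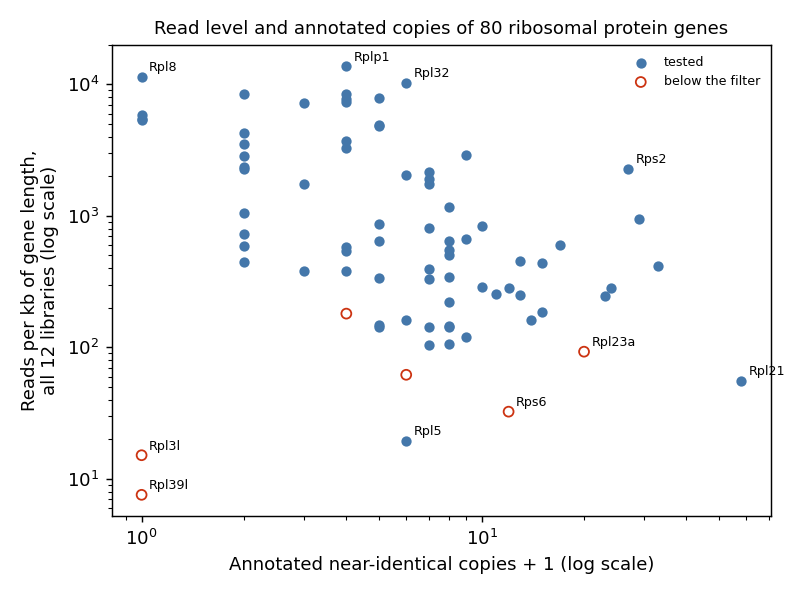
Reads per kilobase over all 12 libraries against the number of annotated near-identical copies plus 1, both on log scales, for 80 ribosomal protein genes: Rpl10l, with 0 reads, and the row named Rpl24 are left out. Filled points passed the filter and open ones did not; genes with 10 or more copies have a median of 268.9 reads per kilobase and those with up to 2 copies 2308.

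Genes that work with the family were taken from lists of textbook members, and limma called 0 genes of any list in any comparison (adjusted p under 0.05), beside the background shares given above. edgeR called 0 as well, while DESeq2 called 1 of them for Day1 over 6h and several in the comparisons with Day7, beside its shares of all genes given above. The 5 tested ribosomal or ribosome-bound genes outside the naming rule, such as Rpsa and Fau, had a median log2 fold change of 0.52 for Day1 over 6h and 0.031 for Day7 over Day1. At an unadjusted p under 0.05 in limma, 0 of them differed in either comparison. Translation factors and other TOP genes, 18 tested, had medians of -0.14 and 0.37 in these comparisons, with 4 of 18 higher at Day7 than at Day1 at an unadjusted p under 0.05, where 11.1% of all genes were. DESeq2 called 4 of the 18 in that comparison, Npm1, Tpt1, Pabpc1 and Eif3k, with 3 higher and 1 lower. It called 4.68% of all genes higher and 11.2% lower there.

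The 27 ribosome biogenesis genes, which make and assemble the subunits in the nucleolus, had a median log2 fold change of 0.31 for Day1 over 6h and -1.25 for Day7 over Day1, where 2 of 27 were positive. At an unadjusted p under 0.05 in limma, 6 of 27 were lower at Day7 than at Day1, where 18% of all genes were, and DESeq2 called 3 lower, Nolc1, Ubtf and Utp20, where it called 11.2% of all genes. The medians of all genes were 0.52 and -0.48 in these comparisons. The 4 snoRNA host genes had medians of 0.33 and -2.03. At an unadjusted p under 0.05 in limma, 3 of 4 were lower at Day7 than at Day1, where 18% of all genes were. DESeq2 called Snhg1 and Snhg5 lower, where it called 11.2% of all genes. The 13 regulators of TOP messages and mTORC1 had medians of 0.080 and -0.35. In limma 1 of 13 was higher at an unadjusted p under 0.05 in each comparison, where 9.77% and 11.1% of all genes were. The 7 genes of ribosome rescue, which free stalled ribosomes, had medians of 0.51 and -0.69. At that p, 1 was higher for Day1 over 6h, against 9.77% of all genes. For Day7 over Day1, 1 was higher and 2 lower, against 11.1% and 18%. DESeq2 called Pelo, which splits stalled ribosomes, higher for Day1 over 6h, where it called 1.51% of all genes higher. For Day7 over Day1 it called Pelo lower and Ube2o higher, where it called 11.2% and 4.68% of all genes.

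The 73 tested mitochondrial ribosomal protein genes, whose products form the separate ribosome of mitochondria, had a median log2 fold change of 0.31 for Day1 over 6h and -0.69 for Day7 over Day1, beside 0.46 and -0.077 for the cytosolic family. For Day7 over Day1, 2 of the 73 were higher and 10 lower at an unadjusted p under 0.05 in limma, where 11.1% of all genes were higher and 18% lower, and DESeq2 called 2 higher and 3 lower, where it called 4.68% and 11.2% of all genes. For Day7 over 6h the medians were -0.86 for biogenesis and -0.21 for mitochondrial ribosomal protein genes, beside 0.49 for the cytosolic family. Whether the cytosolic family differs from these lists was not tested.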

How the data were processed

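Total RNA of iChip-enriched blood was sequenced after library preparation with a Seqwell Rapid kit, per the labels' protocols. The submitters' processing notes name STAR 2.7.10, HTSeq 2.0.1 and build mm9, while the sources used here give neither the annotation nor the scaling step. The deposited signal values, headed CPM, do not sum to one total, as true CPM would. Each is a whole number of reads times a factor of its library (99.9993% whole within 0.001 reads), and reads were recovered that way. The members, lists and tests were chosen with earlier results of these data known.

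Genes with a value of 1 or more in 4 or more libraries (11211) entered the test on log2(value + 1) in limma 3.58.1 (R 4.3.3), with a trended variance, the time group as the only term, all 12 libraries and Benjamini-Hochberg adjustment at 0.05. Fold changes are on that scale and understate low genes. edgeR 4.0.16 and DESeq2 1.42.0 were run on recovered reads. On simulated counts, with 100 genes changed per fold size among 11211, limma recovered 9 of the 8-fold and 88 of the 64-fold changes for Day1 over 6h, 13 and 89 for Day7 over Day1, and 20 and 90 for Day7 over 6h. The changed genes were drawn only from those with a mean value of at least 10. Of the 75 tested members 36 reach that mean, so recovery for the lower members was not simulated. Intervals are exact binomial (scipy 1.17.1), and they and the 3-read limits cover counting error only. Copies were sought with blastn of BLAST 2.17.0 in GENCODE M21, and promoters come from RefSeq (GRCm38.p6). Neither is the build of the files, so they served for names and sequences only.

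Named members were, per comparison, the 4 largest positive and 4 largest negative differences, the stalk proteins, members with known further roles, paralog pairs, the 3 largest and 3 smallest SDs, the 5 with most reads per kilobase and all below the filter; some genes are not reported here.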

Additional observations from a re-analysis of the deposited data

Results flagged for a closer look

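Dixon's criterion (the gap to its neighbour over the group's range) was applied at each time to the tested named members, the family's share of reads outside haemoglobin and its summed value. Within a group of 4 libraries, 1 library stood apart from the other 3 in 6 of these 105 cases, and chance gives about 1 in 20. The 6 were all named members. On the log2(value + 1) scale, Rplp0 was lowest at Day1 in replicate 3 (5.61, the others between 6.07 and 6.16), Rpl7l1 at Day1 in replicate 4 (0.66, the others between 4.00 and 4.51) and Rplp2 at Day1 in replicate 4 (4.05, the others between 4.78 and 4.83). Rpl15 was lowest at Day7 in replicate 4, at 0, with the others between 1.83 and 2.09. In replicate 2 at Day7, Rpl5 was at 0, with the others between 1.07 and 1.22. Rpl39 was highest at 6h in replicate 2 (3.33, the others between 2.64 and 2.73).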

How the results depend on the processing

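The count of 0 members called held in every comparison under both pseudocounts, both other filters, TMM and median-of-ratios scaling, the Y-linked term, edgeR and the omission of the 2 libraries with the fewest genes. TMM scaling gave the same calls and medians as the deposited scale, so it was no separate check. For Day7 over Day1, the fit with the Y-linked term called 0 of all 11211 genes and edgeR 1, so 0 members there says nothing about the family. The same holds for Day1 over 6h with a pseudocount of 4, where 0 of 11211 genes were called, and without a filter, with 0 of 20052. The main fit called 19 of 11211 genes for Day1 over 6h, so 0 of 75 members says little there too. The settings in which members were called follow. Scaled to all reads, 4 were higher for Day1 over 6h, against 10.5% of all genes, and 24 lower for Day7 over Day1, against 35.2%. The medians were 1.66 and -1.70. Scaled to reads outside haemoglobin, 1 was higher, against 3.77% of all genes, and 23 lower, against 33.6%, with medians of 1.24 and -1.43. These scalings moved the median of all genes by 1.07 and 0.72 for Day1 over 6h, and by -1.32 and -1.14 for Day7 over Day1. For Day7 over Day1, array weights gave 1 higher and 4 lower, against 9.91% and 14.9% of all genes, and DESeq2 gave 3 and 2, against 4.68% and 11.2%. A fit of only the 2 groups gave 2 lower (Rpl12 and Rpl9), against 10.1%. Leaving out 1 library gave 0 to 1 higher (Rplp0, without Day7 replicate 1, where 500 of 10853 genes were). For Day7 over 6h, DESeq2 gave 1 higher and 1 lower, against 2.49% and 7.1% of all genes. Reversed signs when scaled to all reads were Rplp0 (0.37), Rpl7l1 (0.15), Rpl41 (0.39) and Rpl15 (0.11) for Day1 over 6h, and Rplp2 (-0.37), Rps2 (-0.48) and Rpl41 (-0.52) for Day7 over Day1. Outside haemoglobin the last 3 were -0.058, -0.17 and -0.21. The cause was not tested.

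Leaving out 1 library put the members' median between 0.38 and 0.56 for Day1 over 6h, -0.34 and 0.13 for Day7 over Day1, and 0.22 and 0.65 for Day7 over 6h. For Day7 over Day1 it was 0.065 in edgeR and 0.49 among genes with a mean of at least 10. Of all reads the mean shares were 0.112% at 6h, 0.347% at Day1 and 0.123% at Day7. Replicate numbers did not pair libraries (correlations of -0.23 to 0.12), and with the replicate block 0 members were called and the medians stayed at 0.46, -0.077 and 0.49. Depth limits the low members: a count of 0 allowed values of up to 1.85 in the third Day7 library.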
